A study of Mus musculus with 12 samples.

Results

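Gene expression at 48 h after fiber cell removal was compared with that at 0 h in lens epithelium of fibronectin conditional knockout (FNcKO) mice, in which the gene Fn1 is targeted. The comparison rests on 6 of the 12 libraries of the series, 3 of FNcKO at 48 h and 3 of FNcKO at 0 h, taken by their labels and not by any measured value. In the study, the fiber cell mass of the lens was removed in living mice of 2 months as a model of cataract surgery. The lens capsule with the epithelial cells left on it was collected either at once or 48 h later. The strain of the FNcKO mice was mixed from C57BL/6, 129 and FVB/N, and the wild type (WT) mice of the other 6 libraries were C57BL/6, so that genotype and strain background cannot be told apart. By the labels, both FNcKO groups carry the same knockout and differ by the time after surgery. The labels do not state the deleted exons, the promoter that drove the recombinase, or the lenses or animals pooled for a library. The design text speaks of biological triplicates, and p-values below measure the spread between these libraries.

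The lens epithelium is a single layer of cells that lies on the inner face of the lens capsule, a thick basement membrane, and supplies the fiber cells that make up the bulk of the lens and hold most of its crystallin proteins. After cataract surgery, epithelial cells left on the capsule can divide, migrate and turn into fibroblast-like or fiber-like cells, which may cloud the capsule. Fibronectin is a matrix glycoprotein bound by integrins. It is laid down early in healing wounds and serves as a scaffold for other matrix proteins.

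The FNcKO libraries held 8368160 to 9706747 counts, with a count for 15924 to 16869 of 24147 genes. A combined deposited table holds, under the name of WT library 1 of 0 h, the values of FNcKO library 1 of 0 h in all 24147 genes. The separate files were used here, and in them all 5 genes that separated the genotypes in the other 10 libraries, chosen without these 2, put each of the 2 on the side of its label. Levels are counts per 1e6 scaled by the trimmed mean of M values (CPM), and 3 values in a row belong to libraries 1, 2 and 3 of the time named. Whole-gene Fn1 counts rose from 16.8, 9.81 and 8.32 CPM at 0 h to 146, 298 and 688 CPM at 48 h (log2FC 5.01 ± 0.61 SE, adjusted p 0.00029 by edgeR, or log2 4.24 without library 3 of 48 h). The 3 values at 48 h lay above all 3 at 0 h, and reads from parts of the gene outside a deletion are counted too, so these levels do not check the genotype. All 17 genes of a lens epithelium list had counts in every FNcKO library. Pax6, a transcription factor of eye development, was at 515, 521 and 507 CPM at 0 h and 368, 403 and 294 CPM at 48 h. Foxe3, which keeps the lens epithelium dividing, was at 129.9, 73.2 and 107 CPM at 0 h and 47.8, 42.6 and 5.08 CPM at 48 h. Pax6 was thus plainly present in all 6 libraries, whereas Foxe3 in library 3 of 48 h lay far below the other 5. Present at both times, Pax6 was still called lower at 48 h (log2FC -0.54, adjusted p 0.0336 by edgeR). That call was lost in several refits without 1 library, among them the one without library 3 of 48 h (log2 -0.42). The labelled tissue also holds markers of other cells. A list of 14 photoreceptor and retina genes summed to 1548, 4287 and 1255 CPM at 0 h and 3213, 383 and 1990.0 CPM at 48 h, which followed neither time, and 0 of the 14 genes passed the test. Neutrophil markers summed to 4.36, 4.39 and 4.88 CPM at 0 h and to 59.2, 55.2 and 154 CPM at 48 h, with Mpo and Elane, granule enzymes of immature neutrophils, at 0 in all 6 libraries. General leukocyte genes summed to 10.8, 25.2 and 23.2 CPM and then to 87.4, 151 and 244 CPM, and macrophage genes to 88.2, 129 and 152 CPM and then to 217, 317 and 470.1 CPM. Counts come from whole capsules, so a gene's fall through fewer cells of a type and through less RNA per cell cannot be told apart.

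Of 14560 genes tested, 2169 (14.9%) were higher and 1442 (9.90%) lower at 48 h, together 24.8% (edgeR quasi-likelihood test, Benjamini-Hochberg adjusted p under 0.05, the adjusted p given throughout). Changes are given as log2 fold changes (log2FC) of that model with standard errors (SE). The change was at least 2-fold in 1562 of the higher and 760 of the lower genes, and at least 16-fold in 255 and 29. Large changes were thus more frequent among the higher genes. Scaling by total counts alone, which moves the median log2 change of all genes from 0.002 to 0.286, turned the share of higher genes among the calls from 60.1% to 82.4%, so the balance of the directions depends on the scaling. Of the called genes, 3448 had no overlap between the libraries of the times, and 163 had one. Over all tested genes the 48 h libraries lay wholly above the 0 h libraries in 20.1% and wholly below in 17.3%. Leaving out each of the 12 libraries in turn kept 1315 of the higher genes (60.6%) and 648 of the lower ones (44.9%) in every refit. The spread was estimated with the WT libraries too. A fit of the FNcKO libraries alone kept 75.3% of the higher and 64.2% of the lower calls.

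The 48 h libraries were not equally far from the 0 h libraries. Over the 2169 higher genes, the median log2 difference from the 0 h mean was 1.24 in library 1, 1.56 in library 2 and 1.83 in library 3. Library 3 was the most changed of the 3 in 71.1% of these genes and library 1 the least changed in 74.0%. The lower genes showed the same order, with median differences of -0.775, -0.998 and -1.353, and library 3 was the most changed in 73.4% of them. These shares describe genes that the same libraries were used to call. A first principal component, with 65.6% of the variance of the 6 libraries, held the 0 h libraries at -65.5, -62.1 and -70.1 and the 48 h libraries at 33.1, 64.3 and 100.2. Of the 2169 higher genes, 2163 lay above the 0 h mean in all 3 libraries, and all 1442 lower genes lay below it. Genes called from these same libraries tend to share a direction by that choice, so these counts are no separate support. A change of at least 2-fold in each of the 3 libraries was seen in 1153 higher and 432 lower genes.

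The spread within a time was wider at 48 h for the most variable genes. The 90th percentile of the SD of log2 CPM over all tested genes was 0.945 at 48 h and 0.781 at 0 h. The median SD was 0.298 at 48 h and 0.325 at 0 h, and the 3 libraries spanned more than 2-fold in 3795 genes (26.1%) at 48 h and 3479 (23.9%) at 0 h. Library 3 of 48 h stood at least 2-fold above both others in 293 genes, of which 127 were called higher, and at least 2-fold below both in 752, of which 198 were called lower. Library 1 stood as far above both others in 424 genes, of which 10 were called higher, and as far below both in 373, of which 235 were called higher. Library 2 did so in 112 and 725 genes, and 45 of the 725 were called higher and 13 lower. Without library 3 of 48 h, 1469 genes were called higher and 763 lower, of which 1441 and 750 were among the calls from all libraries. Without library 2 of 48 h the higher genes numbered 1778 and the lower genes 949. The share of counts from crystallin genes moved with these differences. It was 16.1, 13.9 and 24.7% at 0 h and 11.9, 7.22 and 1.47% at 48 h (18.2% ± 5.74 against 6.87% ± 5.23, SD, n = 3 each, exact permutation test, two-sided p = 0.1, the smallest that 3 against 3 allows). Library 3 thus held the least crystallin at 48 h and the most at 0 h, and the labels do not say whether the numbers pair the libraries of both times. With that share as a covariate in the model, an alternative chosen after the data were seen, 993 genes were called higher and 345 lower.

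**Figure D1:**
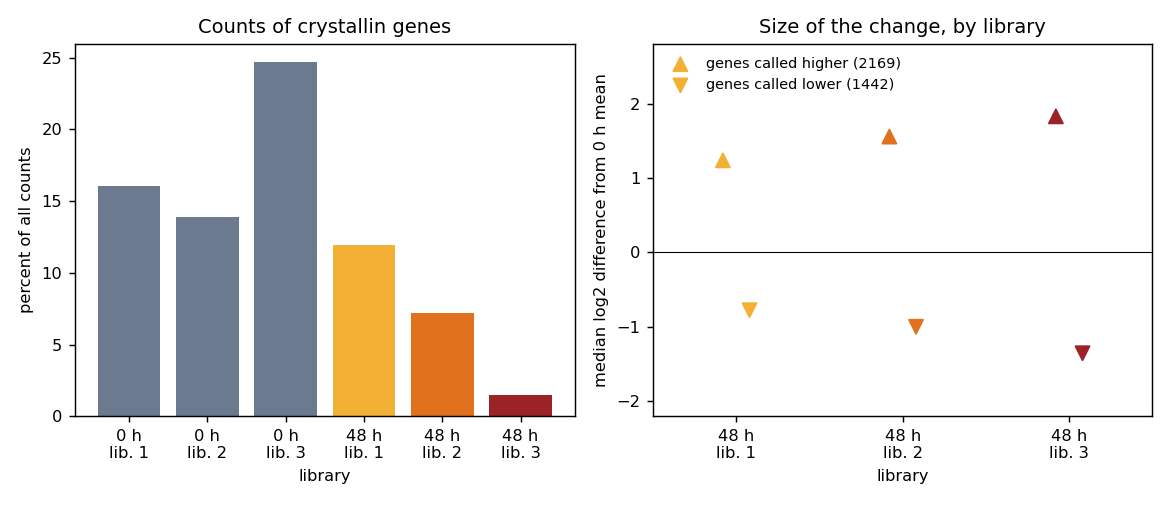
Left, bars give the percent of all counts that fell on crystallin genes in each FNcKO library, from 24.7% in library 3 of 0 h to 1.47% in library 3 of 48 h. Right, triangles give the median log2 difference from the 0 h mean over the genes called higher or lower, for each 48 h library, and library 3 lies farthest from 0 in both directions.

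Most matrix genes of wounds rose, while the lists of fibrillar and capsule matrix moved both ways. In the list of matricellular and provisional matrix, 10 of 16 genes were higher and 1 lower, with a median log2 fold change of 1.66 against 0.002 over all genes. Tenascin C (Tnc), a matrix protein of healing wounds that modulates cell adhesion, was at 7.83, 8.31 and 8.89 CPM at 0 h and 422, 1254 and 1216 CPM at 48 h (log2FC 6.85 ± 0.59 SE, adjusted p 2.05e-05 by edgeR). Tgfbi, a secreted protein that binds integrins and collagens, went from 28.4, 19.9 and 16.4 to 525, 887 and 876 CPM (log2FC 5.14 ± 0.37 SE, adjusted p 2.4e-06 by edgeR). Both rose in all libraries, and library 1 held the lowest 48 h value of each. Sparc, a collagen-binding protein of basement membranes, was the 1 lower gene, at 5391, 5580.0 and 6942 CPM at 0 h and 3204, 3533 and 2053 CPM at 48 h (log2FC -1.03 ± 0.33 SE, adjusted p 0.0345 by edgeR), and lost its call when any single FNcKO library was left out.

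Of 16 fibrillar collagens and partners, 7 were higher and 2 lower (1 lower without library 2 or library 3 of 48 h). Type I collagen (Col1a1) was at 9.50, 3.81 and 5.16 CPM at 0 h and 45.1, 50.2 and 56.6 CPM at 48 h (log2FC 3.03 ± 0.44 SE, adjusted p 0.00068 by edgeR). Type III collagen (Col3a1) was at 2.01, 0.923 and 0.717 CPM at 0 h and 20.5, 18.2 and 32.4 CPM at 48 h (log2FC 4.24 ± 0.58 SE, adjusted p 0.000487 by edgeR). The 48 h values of Col1a1 lay close together. Fibulin 2 (Fbln2), an elastic fiber and basement membrane protein, was less even, with 6.71, 8.89 and 9.04 CPM at 0 h and 91.6, 449 and 638 CPM at 48 h (log2FC 5.58 ± 0.78 SE, adjusted p 0.000691 by edgeR). Fbn1, the core of microfibrils, was at 605, 817 and 525 CPM at 0 h and 563, 717 and 639 CPM at 48 h and did not pass (log2FC -0.02 ± 0.27 SE, adjusted p 0.968 by edgeR). Among enzymes that fold and crosslink collagen, 6 of 15 were higher and 3 lower, with examples of both directions. Bmp1, which cleaves procollagen outside the cell, rose from 261, 229.7 and 269 to 653, 875 and 819 CPM (log2FC 1.63 ± 0.22 SE, adjusted p 0.000286 by edgeR). The crosslinking transglutaminase Tgm2 rose from 12.6, 8.89 and 6.45 to 70.4, 76.9 and 146 CPM (log2FC 3.38 ± 0.41 SE, adjusted p 0.000224 by edgeR). Prolyl hydroxylases act on collagen chains inside the cell. Their subunit P4ha1 fell from 424, 488 and 531 to 205, 182 and 111 CPM (log2FC -1.53 ± 0.24 SE, adjusted p 0.000792 by edgeR). The subunit P4ha2 fell from 155, 176 and 209 to 48.7, 56.1 and 35.5 CPM (log2FC -1.94 ± 0.26 SE, adjusted p 0.000258 by edgeR).

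In the capsule and basement membrane list, 4 of 22 genes were higher and 5 lower, or 3 and 2 without library 3 of 48 h. Nephronectin (Npnt), an integrin ligand of basement membranes, fell from 477, 513 and 703 to 108, 70.1 and 37.2 CPM (log2FC -2.97 ± 0.45 SE, adjusted p 0.000816 by edgeR). Type IV collagen chains form the network of the capsule. Col4a1 was at 10390.1, 9736 and 10981 CPM at 0 h and 4577, 4311 and 1817 CPM at 48 h (log2FC -1.54 ± 0.44 SE, adjusted p 0.0211 by edgeR). Without library 3 of 48 h its log2 change was -1.22 and no longer passed, and the call was lost without library 1 of 0 h too. All 48 h values of both genes lay below all 0 h values, with library 3 the lowest.

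Many proteases and protease inhibitors rose. Of 17 metalloproteinases and inhibitors 9 were higher and 0 lower (1 lower without library 1 of 48 h). Timp1, an inhibitor of metalloproteinases, was at 22.8, 17.3 and 16.8 CPM at 0 h and 182, 298 and 467 CPM at 48 h (log2FC 4.05 ± 0.36 SE, adjusted p 1.67e-05 by edgeR). Mmp14, a collagenase on the cell surface, was at 21.5, 24.1 and 22.9 CPM at 0 h and 68.6, 109 and 147 CPM at 48 h (log2FC 2.24 ± 0.26 SE, adjusted p 8.25e-05 by edgeR). In the plasminogen system and coagulation list 9 of 12 were higher and 0 lower. Plat, the tissue plasminogen activator, rose from 26.6, 30.7 and 32.99 to 146, 266 and 264 CPM (log2FC 2.90 ± 0.24 SE, adjusted p 8.79e-06 by edgeR). Its level was above all 0 h values in each 48 h library.

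**Figure D2:**
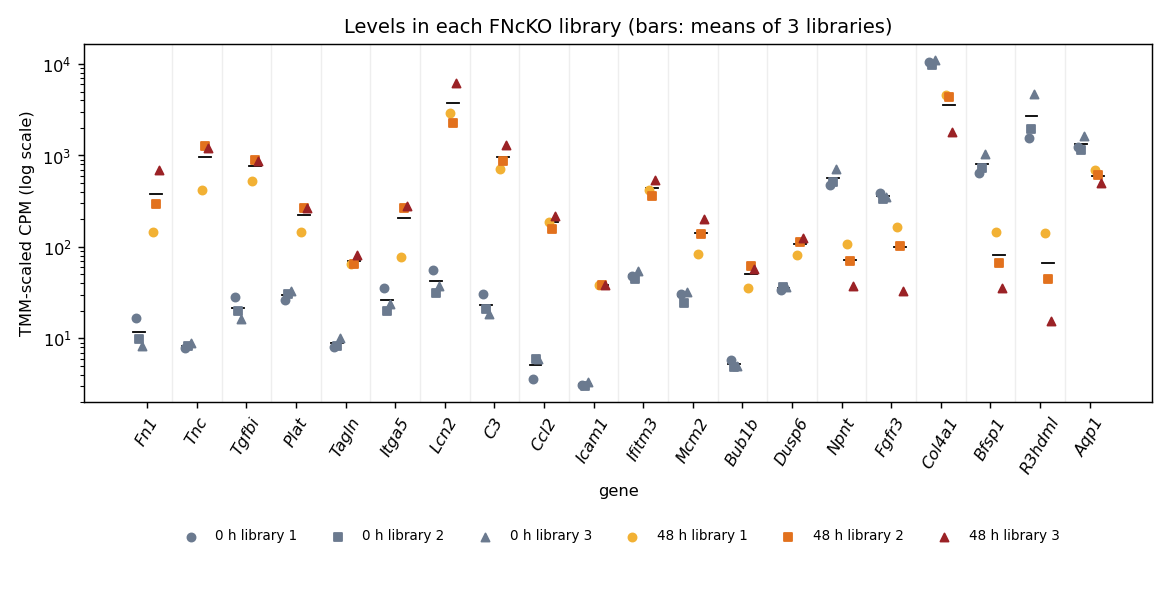
TMM-scaled CPM on a log axis for 20 genes named in the text, with each FNcKO library as a point (circles, squares and triangles are libraries 1, 2 and 3) and short bars for the means of 3 libraries. Icam1 and Tagln have nearly the same level in the 3 libraries of 48 h, whereas Fn1, Itga5 and R3hdml span more than 3-fold.

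Of 17 tested genes of the smooth muscle type contractile apparatus, 8 were higher and 0 lower, with a median log2 fold change of 1.49. Tagln (transgelin), which binds actin in myofibroblasts and smooth muscle, rose from 8.05, 8.19 and 10.2 to 64.6, 64.3 and 81.1 CPM (log2FC 2.99 ± 0.24 SE, adjusted p 5.23e-06 by edgeR). Calponin 2 (Cnn2), which binds actin and is not confined to muscle, rose from 23.03, 25.9 and 20.7 to 65.4, 108 and 126 CPM (log2FC 2.11 ± 0.23 SE, adjusted p 6.45e-05 by edgeR). Caldesmon (Cald1), at 379.7, 467 and 425 CPM at 0 h and 462, 672 and 618 CPM at 48 h, did not pass (log2FC 0.46 ± 0.25 SE, adjusted p 0.19 by edgeR). The CArG box, bound by serum response factor, is known from promoters of contractile genes. RefSeq promoter windows (GRCm38.p6, 250 bases before to 50 after the start) matched 15 list genes with 16 windows, of which 2 (12.5%) held a CArG box on either strand, against 1.6% of 32851 windows of all genes. CATTCC, a TEAD site, was in 7 of the 16 (43.8%) and in 14.7% of all windows. A match describes letters and not binding. The window of Cnn2, at chr10:79988350-79988649 on the plus strand, is shown as that of the gene with the smallest p among those with a CArG box, in capitals.
Cnn2: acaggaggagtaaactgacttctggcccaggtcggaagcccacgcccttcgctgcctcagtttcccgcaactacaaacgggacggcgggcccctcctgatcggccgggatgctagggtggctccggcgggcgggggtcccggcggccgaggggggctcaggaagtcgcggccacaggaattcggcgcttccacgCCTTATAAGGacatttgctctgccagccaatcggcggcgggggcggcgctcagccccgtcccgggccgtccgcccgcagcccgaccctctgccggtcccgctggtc

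Adhesion genes rose in part. Of 17 integrin chains, 5 were higher and 0 lower (2 lower without library 1 of 48 h). Itga5 pairs with Itgb1 as the main fibronectin receptor and rose from 35.2, 19.7 and 23.8 to 77.9, 264 and 277 CPM (log2FC 2.97 ± 0.43 SE, adjusted p 0.000717 by edgeR). Itga7, a chain of laminin receptors, rose from 9.17, 7.27 and 9.47 to 167, 252 and 317 CPM (log2FC 4.83 ± 0.32 SE, adjusted p 1.62e-06 by edgeR). Itga6, another laminin receptor chain, had 153 CPM per kb of coding length at 0 h against 2.15 for Itga7. Unscaled by length it was at 855, 1036 and 864 CPM at 0 h and 759.9, 593 and 332 CPM at 48 h and missed the threshold (log2FC -0.71 ± 0.30 SE, adjusted p 0.105 by edgeR). Of 20 focal adhesion genes 8 were higher and 1 lower, or 4 and 0 without library 3 of 48 h. Vinculin (Vcl), a linker between integrins and actin, was at 256, 255 and 170.4 CPM at 0 h and 449, 732 and 578 CPM at 48 h (log2FC 1.37 ± 0.24 SE, adjusted p 0.00155 by edgeR). Among 19 tested EMT factors and junction genes only 2 were higher and 2 lower, with a median log2 fold change of -0.09. These counts lay near the 14.9% higher and 9.90% lower of all tested genes. The abundant Vim and Ctnnb1 missed the threshold (log2FC 0.40 and -0.13). The called genes included Gja1 (lower) and Zeb1 (higher) beside the pair that follows. E-cadherin (Cdh1), the adhesion molecule of epithelial junctions, fell from 652, 672 and 565 to 346, 294 and 143 CPM (log2FC -1.27 ± 0.29 SE, adjusted p 0.00602 by edgeR). Snai1, a repressor of it, rose from 1.68, 2.19 and 0.717 to 3.80, 6.77 and 11.3 CPM (log2FC 2.22 ± 0.47 SE, adjusted p 0.00416 by edgeR).

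In the TGF-beta and BMP pathway 12 of 27 genes were higher and 3 lower. Tgfb2, the TGF-beta ligand of the lens, was at 576, 783 and 592 CPM at 0 h and 646, 732 and 603 CPM at 48 h and did not pass (log2FC 0.02 ± 0.20 SE, adjusted p 0.953 by edgeR). Bmp7 fell from 259, 236 and 295 to 156, 139.9 and 143 CPM (log2FC -0.85 ± 0.16 SE, adjusted p 0.0023 by edgeR). Ltbp1, which holds latent TGF-beta in the matrix, rose from 163, 213 and 135 to 433, 448 and 513 CPM (log2FC 1.45 ± 0.24 SE, adjusted p 0.00104 by edgeR). Pmepa1, a target that dampens TGF-beta signals, rose from 49.1, 62.7 and 61.2 to 134.5, 327 and 432 CPM (log2FC 2.37 ± 0.35 SE, adjusted p 0.000586 by edgeR). Smad6, an inhibitor induced by BMP, fell from 26.05, 16.5 and 22.7 to 12.2, 10.3 and 11.8 CPM (log2FC -0.93 ± 0.24 SE, adjusted p 0.0137 by edgeR), a call lost without library 1 of 0 h or library 2 of 48 h. Targets of YAP and serum response factor were higher in 10 of 16 and lower in 2. Cyr61, a matricellular YAP target, rose from 39.02, 25.6 and 24.4 to 119, 249 and 318 CPM (log2FC 2.94 ± 0.43 SE, adjusted p 0.00072 by edgeR). Axl, a receptor tyrosine kinase, rose from 63.4, 65.2 and 39.4 to 429, 754 and 1015 CPM (log2FC 3.71 ± 0.34 SE, adjusted p 1.62e-05 by edgeR). Crim1, which binds BMPs and is abundant in lens epithelium, fell from 3296, 3479.6 and 2189.6 to 1598, 1613 and 627 CPM (log2FC -1.22 ± 0.38 SE, adjusted p 0.0308 by edgeR) but not without library 3 of 48 h (log2 -0.89), library 1 or library 2 of 0 h.

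In the list of FGF, EGF and ERK feedback 11 of 23 were higher and 3 lower. Fgfr2 fell from 418, 413 and 442 to 205, 186 and 82.4 CPM (log2FC -1.43 ± 0.28 SE, adjusted p 0.00279 by edgeR). Fgfr3 fell from 393, 335 and 350.3 to 167, 103 and 32.9 CPM (log2FC -1.83 ± 0.47 SE, adjusted p 0.016 by edgeR), while Fgfr1, at 369.5, 338 and 360.3 CPM at 0 h and 436, 439 and 359.8 CPM at 48 h, did not pass (log2FC 0.21 ± 0.16 SE, adjusted p 0.369 by edgeR). Both falling receptors were lowest in library 3. The ERK phosphatase Dusp6 rose from 34.1, 36.5 and 36.6 to 81.99, 114 and 124 CPM (log2FC 1.58 ± 0.17 SE, adjusted p 5.65e-05 by edgeR). Etv4, an ETS factor downstream of FGF, rose from 9.50, 7.04 and 7.31 to 20.9, 39.9 and 36.3 CPM (log2FC 2.02 ± 0.29 SE, adjusted p 0.000424 by edgeR). Epiregulin (Ereg), an EGF receptor ligand, had 1, 1 and 0 counts at 0 h and 1.90, 17.1 and 29.2 CPM at 48 h (adjusted p 0.00108 by edgeR).

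Of 17 Wnt pathway genes 3 were higher and 4 lower, and of 12 Notch genes 2 were higher and 1 lower (0 lower without library 2 or library 3 of 48 h). Over all tested genes 14.9% were higher and 9.90% lower. The Notch counts and the higher Wnt genes lay near these shares, so the genes below are single examples. The secreted Wnt inhibitor Sfrp1 fell from 1682, 2066 and 2189 to 1049, 671 and 262 CPM (log2FC -1.58 ± 0.41 SE, adjusted p 0.0142 by edgeR). Dkk3, a secreted glycoprotein of the Dickkopf family, fell from 4935, 5899.9 and 5627 to 2919, 2420.2 and 1171 CPM (log2FC -1.34 ± 0.31 SE, adjusted p 0.00722 by edgeR). Tcf7, a nuclear effector of Wnt, rose from 5.81, 4.62 and 5.59 to 15.3, 21.6 and 29.8 CPM (log2FC 2.06 ± 0.31 SE, adjusted p 0.000563 by edgeR). The Notch ligand Jag1 rose from 162, 191 and 121 to 301, 772 and 662 CPM (log2FC 1.87 ± 0.36 SE, adjusted p 0.00264 by edgeR), with library 1 lowest of the 3.

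Immediate early genes, the transcription factors that respond first to growth factors and stress, were mostly higher at 48 h. Of 20 genes, 15 were higher and 0 lower, with a median log2 fold change of 2.34. Junb, an AP-1 subunit, rose from 5.81, 5.77 and 4.45 to 69.8, 83.3 and 116 CPM (log2FC 4.06 ± 0.31 SE, adjusted p 4.13e-06 by edgeR). Egr1, a zinc finger factor, rose from 17.7, 17.1 and 19.1 to 152, 162 and 217 CPM (log2FC 3.30 ± 0.26 SE, adjusted p 5.63e-06 by edgeR). The related Jund, at 96.6, 72.4 and 117 CPM at 0 h and 77.1, 71.3 and 95.2 CPM at 48 h, did not pass (log2FC -0.23 ± 0.22 SE, adjusted p 0.492 by edgeR). Nor did Nr4a1, whose 0 h values were uneven at 29.7, 48.9 and 3.73 CPM against 16.3, 14.5 and 14.7 CPM at 48 h.

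Acute phase genes and chemokines had the largest median changes of the 36 lists on responses. Of 15 tested chemokines 13 were higher and 0 lower (median log2 fold change 4.71), of 22 cytokines and receptors 19 and 0 (2.75), and of 18 acute phase and antimicrobial genes 16 and 0 (5.01). Ccl2, which draws monocytes, rose from 3.58, 5.89 and 6.02 to 185, 157 and 217 CPM (log2FC 5.18 ± 0.25 SE, adjusted p 7.51e-08 by edgeR). Its 48 h values lay close together, whereas those of Cxcl5 did not. Cxcl5, which draws neutrophils, was at 19.97, 10.3 and 59.2 CPM at 48 h after 0.671, 0.577 and 0.287 CPM at 0 h (log2FC 5.79 ± 0.87 SE, adjusted p 0.000935 by edgeR, log2 4.81 without library 3). Lipocalin 2 (Lcn2), an iron-trapping protein of acute inflammation, rose from 56.6, 31.7 and 37.7 to 2916, 2269 and 6167 CPM (log2FC 6.49 ± 0.51 SE, adjusted p 5.33e-06 by edgeR). Per kb of coding length, Lcn2 reached 4436 CPM at 48 h from 49.3 CPM at 0 h and was then among the 10 highest genes, with 5 crystallins and vimentin. Alox15, a lipoxygenase that makes lipid mediators, had 0.224, 0.346 and 0.574 CPM at 0 h and 79.03, 87.9 and 32.99 CPM at 48 h (log2FC 7.45 ± 0.54 SE, adjusted p 4.13e-06 by edgeR), with library 3 the lowest, unlike most of its list.

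Socs3 and Il1rn, which restrain cytokine signals, rose as well. Socs3, a feedback inhibitor of the IL-6 family, went from 8.50, 6.35 and 11.04 to 165, 176 and 227 CPM (log2FC 4.46 ± 0.29 SE, adjusted p 1.62e-06 by edgeR). Il1rn, the antagonist of the IL-1 receptor, rose from 0.559, 0.462 and 0.574 to 32.2, 42.6 and 64.7 CPM (log2FC 6.42 ± 0.54 SE, adjusted p 1.29e-05 by edgeR). Il6 had no count in any 0 h library and 0.317, 2.73 and 4.86 CPM at 48 h, at least 7.11-fold higher against the limit of 3 counts that a count of 0 allows (adjusted p 0.00782 by edgeR), or at least 4.11-fold without library 3 of 48 h. Tnf had none either and 1.16, 4.81 and 1.90 CPM at 48 h, at least 7.08-fold higher (adjusted p 0.0059 by edgeR), or at least 4.14-fold without library 2. Library 3 held the most Il6 and library 2 the most Tnf. S100a9, a calcium-binding protein of neutrophils, likewise had no count at 0 h and 7.40, 6.33 and 24.3 CPM at 48 h, at least 34.2-fold higher (adjusted p 0.00211 by edgeR), or at least 18.5-fold without library 3. Neutrophil, leukocyte and macrophage marker sums, given above, were highest in library 3 too, and their part in the cytokine and chemokine values was not tested. Icam1, an adhesion molecule that leukocytes bind, had nearly 1 value per time, 3.13, 3.001 and 3.30 CPM at 0 h and 38.1, 37.9 and 38.6 CPM at 48 h (log2FC 3.60 ± 0.31 SE, adjusted p 8.83e-06 by edgeR).

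Sites of the NF-kappaB family are known from chemokine promoters. RefSeq windows were matched for 10 chemokines, and 4 of these 10 windows (40.0%) held a kappaB site on either strand, against 8.5% of the windows of all genes. Among genes called higher the share was 12.6% and among those called lower 10.3%. Ccl9, a chemokine of myeloid cells, rose from 1.23, 2.65 and 2.58 to 29.7, 39.2 and 99.4 CPM (log2FC 4.71 ± 0.61 SE, adjusted p 0.000406 by edgeR, log2 4.0 without library 3 of 48 h) and is shown as the chemokine with the smallest p among those with a kappaB site. Its window lies at chr11:83578587-83578886 on the minus strand and has the site in capitals.
Ccl9: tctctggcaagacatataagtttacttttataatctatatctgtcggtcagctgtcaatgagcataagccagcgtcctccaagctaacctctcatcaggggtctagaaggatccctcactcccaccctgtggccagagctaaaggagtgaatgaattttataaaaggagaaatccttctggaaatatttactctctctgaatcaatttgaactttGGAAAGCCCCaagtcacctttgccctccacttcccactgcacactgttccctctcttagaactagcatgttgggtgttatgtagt

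Complement genes were higher in 8 of 16 and lower in 3 (1 lower without library 2 or library 3 of 48 h). The central component C3 rose from 30.7, 20.8 and 18.4 to 718, 872 and 1290.5 CPM (log2FC 5.36 ± 0.38 SE, adjusted p 2.24e-06 by edgeR). Factor B (Cfb) of the alternative pathway rose from 5.25, 6.23 and 3.73 to 93.6, 75.8 and 140.2 CPM (log2FC 4.33 ± 0.41 SE, adjusted p 4.16e-05 by edgeR) and the classical protease C1ra rose from 21.9, 19.3 and 18.6 to 67.6, 65.96 and 70.9 CPM (log2FC 1.77 ± 0.19 SE, adjusted p 5.65e-05 by edgeR). Cd59a, which shields cells from the lytic complex, fell from 94.1, 99.4 and 119 to 45.01, 38.8 and 29.3 CPM (log2FC -1.47 ± 0.20 SE, adjusted p 0.000315 by edgeR). The macrophage product C1qa, at 6.93, 7.96 and 14.2 CPM at 0 h and 6.55, 9.17 and 16.1 CPM at 48 h, did not pass (log2FC 0.14 ± 0.40 SE, adjusted p 0.841 by edgeR).

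In the interferon response, library 1 and not library 3 had the largest median difference from 0 h. Of 22 genes 17 were higher and 0 lower, with a median log2 fold change of 2.498. The median differences from the 0 h mean were 2.64, 1.88 and 1.43 in libraries 1, 2 and 3, and library 1 was the most changed in 10 of the 17 called genes. Ifitm3, a membrane protein that blocks virus entry, was highest in library 3 all the same, at 48.6, 45.1 and 54.1 CPM at 0 h and 419, 359.6 and 546 CPM at 48 h (log2FC 3.163 ± 0.27 SE, adjusted p 8.83e-06 by edgeR). Rsad2 (viperin), an antiviral enzyme, was at 0.559, 1.27 and 0.287 CPM at 0 h and 16.2, 9.28 and 1.48 CPM at 48 h (log2FC 3.61 ± 0.86 SE, adjusted p 0.00917 by edgeR), with library 3 near the 0 h values and library 1 far above them. Its log2 change was 2.88 without library 1 of 48 h and 4.33 without library 2 of 0 h. Ifit1, which binds foreign RNA, was at 5.81, 7.04 and 3.44 CPM at 0 h and 52.4, 25.6 and 21.3 CPM at 48 h (log2FC 2.59 ± 0.38 SE, adjusted p 0.000523 by edgeR). Rsad2 and Ifit1 were named after their values were seen. Genes of antigen presentation were higher in 11 of 16 and lower in 0. Psmb8, a subunit of the immunoproteasome, rose from 2.24, 2.08 and 2.58 to 15.3, 16.9 and 21.8 CPM (log2FC 2.97 ± 0.32 SE, adjusted p 5.27e-05 by edgeR). H2-D1, a class I molecule with close paralogs, rose from 12.9, 15.4 and 15.8 to 68.6, 37.7 and 72.01 CPM (log2FC 2.02 ± 0.28 SE, adjusted p 0.000315 by edgeR).

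GAAA, 2 free bases and GAAA again make up an element that is part of the site bound by interferon regulatory factors and STAT complexes. It was found on either strand in 11 of 21 windows (52.4%) of the 17 interferon genes matched in RefSeq and in 3.4% of all windows, 4.9% of those of genes called higher and 2.7% of those of genes called lower. The letters can overlap those of TTTGAA, searched below. The window of Ifitm3, the list gene with the smallest p, lies at chr7:141010695-141010994 on the minus strand and holds 2 matches, in capitals, just after the start.
Ifitm3: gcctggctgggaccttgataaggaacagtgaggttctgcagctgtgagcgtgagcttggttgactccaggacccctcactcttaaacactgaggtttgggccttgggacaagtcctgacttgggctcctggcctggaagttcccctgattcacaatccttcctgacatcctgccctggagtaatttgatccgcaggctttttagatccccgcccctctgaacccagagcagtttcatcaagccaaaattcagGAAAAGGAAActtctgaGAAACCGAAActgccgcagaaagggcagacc

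**Figure D3:**
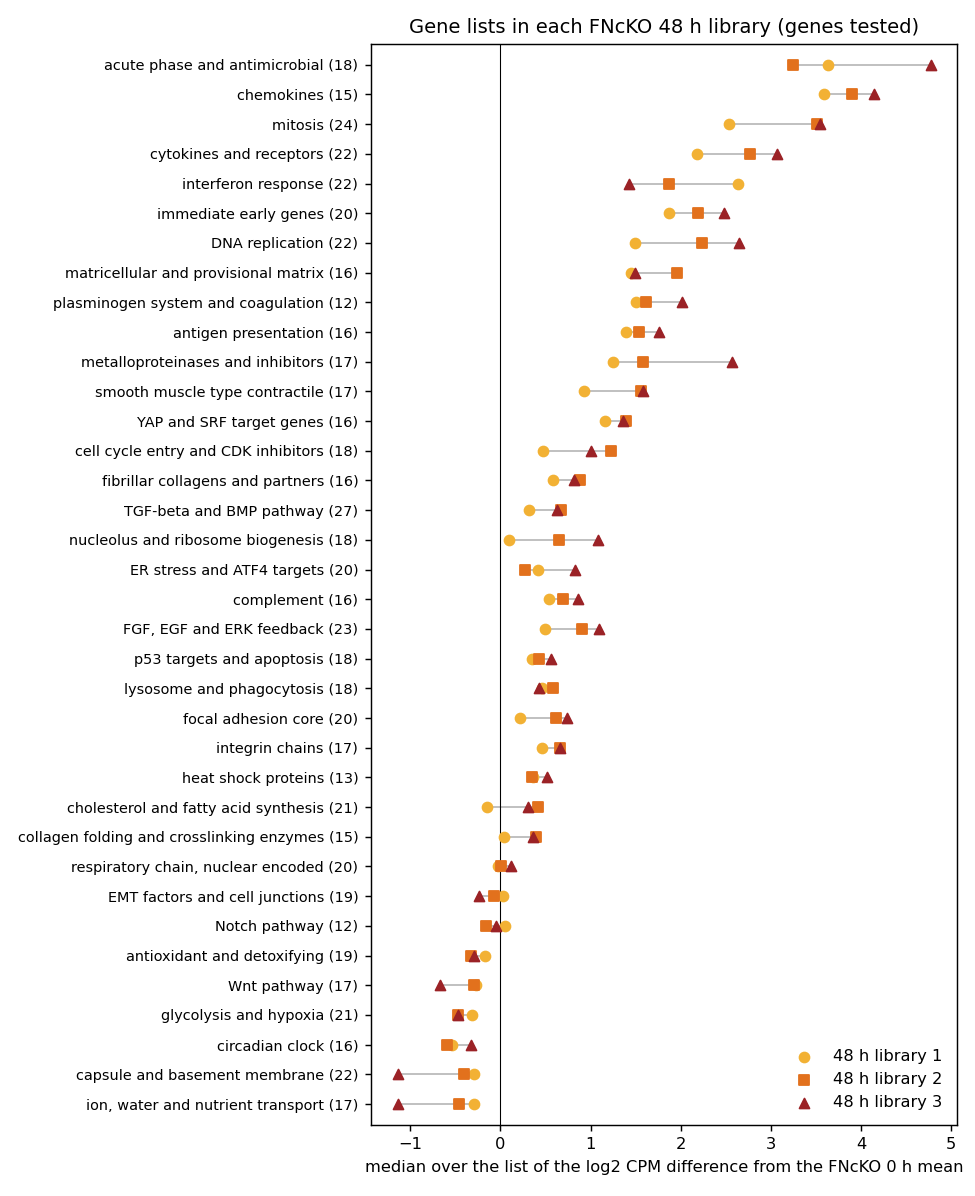
For each of 36 gene lists (number of tested genes in parentheses), points give the median over the list of the log2 CPM difference from the FNcKO 0 h mean in 48 h libraries 1 (circle), 2 (square) and 3 (triangle), and lines join the lowest and highest. Library 3 lies farthest right for DNA replication and acute phase genes, at 2.65 and 4.77, whereas library 1 does for the interferon response, at 2.64.

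All 22 DNA replication genes and all 24 mitosis genes were higher at 48 h, with median log2 fold changes of 2.24 and 3.28. Mcm2, a subunit of the replicative helicase, rose from 30.9, 24.1 and 32.3 to 84.6, 140.1 and 202 CPM (log2FC 2.29 ± 0.31 SE, adjusted p 0.00034 by edgeR). Mcm6, another subunit, rose from 15.7, 11.2 and 10.8 to 55.5, 96.3 and 165 CPM (log2FC 3.07 ± 0.41 SE, adjusted p 0.000434 by edgeR). Every one of the 22 replication genes was most changed in library 3. The mitosis genes were most changed in library 2 in 12 cases and in library 3 in the other 12, never in library 1. Bub1b, a kinase-like protein of the spindle checkpoint, was at 5.81, 4.85 and 5.02 CPM at 0 h and 35.2, 61.3 and 56.9 CPM at 48 h (log2FC 3.28 ± 0.31 SE, adjusted p 1.95e-05 by edgeR). Ccna2, the cyclin of S phase and mitosis entry, was at 10.2, 9.003 and 14.3 CPM at 0 h and 54.3, 115 and 132 CPM at 48 h (log2FC 3.17 ± 0.47 SE, adjusted p 0.000767 by edgeR). Without libraries 3 of both times, an alternative chosen after the data were seen, 21 replication and 22 mitosis genes were still called higher.

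Promoters of mitosis genes are known for a CCAAT box and a cell cycle homology region. CCAAT was found in 18 of 20 windows of the 19 mitosis genes matched in RefSeq and in 37.4% of all windows, and TTTGAA in 16 of 20 and in 17.9% of all. In windows of replication genes TTTGAA was in 2 of 18 (11.1%), whereas the E2F site, TTT with 2 free bases and CGC, was in 8 (44.4%), against 5.2% of all windows, 7.8% of those of tested genes and 1 of 20 for mitosis. Both strands were searched, and genes called higher as a whole had CCAAT in 37.4% of windows, TTTGAA in 15.1% and the E2F site in 10.2%. The window of Bub1b, the mitosis gene with the smallest p, lies at chr2:118597961-118598260 on the plus strand and has both motifs in capitals, CCAAT as its complement ATTGG.
Bub1b: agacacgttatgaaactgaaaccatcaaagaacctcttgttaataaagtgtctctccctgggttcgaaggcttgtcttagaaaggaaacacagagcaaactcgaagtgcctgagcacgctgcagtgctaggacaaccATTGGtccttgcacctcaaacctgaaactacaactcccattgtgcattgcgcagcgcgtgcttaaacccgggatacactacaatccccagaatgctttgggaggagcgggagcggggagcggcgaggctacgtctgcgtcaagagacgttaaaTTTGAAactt

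Cell cycle entry genes and inhibitors of cyclin-dependent kinases were higher in 8 of 18 and lower in 3. Inhibitors went both ways. Cdkn1a (p21), a p53 target, rose from 2.68, 4.85 and 2.87 to 22.8, 64.8 and 77.6 CPM (log2FC 3.98 ± 0.43 SE, adjusted p 8.12e-05 by edgeR). Cdkn1b (p27) fell from 62.2, 81.5 and 62.2 to 42.6, 40.2 and 32.8 CPM (log2FC -0.83 ± 0.16 SE, adjusted p 0.00279 by edgeR). Cdkn1c (p57), which marks cells leaving the cycle for fiber differentiation, fell from 80.6, 86.8 and 135 to 32.96, 18.2 and 19.3 CPM (log2FC -2.10 ± 0.41 SE, adjusted p 0.00342 by edgeR). Cyclin D1 (Ccnd1) was at 582, 493 and 403 CPM at 0 h and 306, 668 and 812 CPM at 48 h, with library 1 below all 0 h values and libraries 2 and 3 above all of them, and did not pass (log2FC 0.27 ± 0.32 SE, adjusted p 0.582 by edgeR). Nucleolus and ribosome biogenesis genes were higher in 7 of 18 and lower in 0, or in 3 without library 3 of 48 h and in 13 without library 1. Nucleophosmin (Npm1), a nucleolar chaperone, was at 99.6, 132 and 182 CPM at 0 h and 203, 370.2 and 506 CPM at 48 h (log2FC 1.38 ± 0.32 SE, adjusted p 0.0075 by edgeR).

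Part of the genes of lens identity fell. In the lens epithelium list 8 of 17 were lower and 1 higher, with a median log2 fold change of -0.79, and without library 3 of 48 h 5 were lower and 0 higher. Slc38a3, a glutamine transporter, fell from 183, 188 and 242 to 94.6, 65.1 and 94.6 CPM (log2FC -1.27 ± 0.21 SE, adjusted p 0.00102 by edgeR). Mab21l1, which eye development needs, fell from 262, 243 and 296 to 152, 146 and 72.7 CPM (log2FC -1.11 ± 0.27 SE, adjusted p 0.00979 by edgeR). Of 19 fiber genes other than crystallins 11 were lower and 0 higher, or 6 without library 3 of 48 h, 6 without library 2 and 16 without library 1. Median differences from the 0 h mean were -1.06, -1.99 and -3.89 in libraries 1, 2 and 3, so that the libraries were far apart. Filensin (Bfsp1), of the beaded filaments of fibers, fell from 643, 728 and 1036 to 145, 66.4 and 35.2 CPM (log2FC -3.29 ± 0.76 SE, adjusted p 0.00988 by edgeR, log2 -3.98 without library 1). Mip, the fiber water channel, was at 2367, 4081 and 6024 CPM at 0 h and 1822, 501 and 80.5 CPM at 48 h and missed the threshold (log2FC -2.38 ± 0.88 SE, adjusted p 0.0728 by edgeR) although all 48 h values lay below all 0 h values.

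Only 4 of 16 crystallins passed, all lower, and 0 did without library 2 or library 3 of 48 h, against 11 without library 1. Cryaa, the lens chaperone alpha A crystallin and the gene with the highest level per kb at both times, was at 97892, 70459 and 160541 CPM at 0 h and 64294, 44194 and 8887 CPM at 48 h (log2FC -1.49 ± 0.67 SE, adjusted p 0.12 by edgeR). The 4 that passed were gamma crystallins, whose reads may be split between close paralogs. Crygd was at 67.6, 137 and 539.7 CPM at 0 h and 15.5, 1.64 and 2.85 CPM at 48 h (log2FC -5.21 ± 1.53 SE, adjusted p 0.0312 by edgeR, and -3.96 without library 3 of 0 h, where it missed, as without library 2 or 3 of 48 h and 1 WT library). R3hdml, a secreted protein, had a similar pattern at a high level, 1535, 1924 and 4645 CPM at 0 h and 142, 44.1 and 15.6 CPM at 48 h (log2FC -5.33 ± 0.92 SE, adjusted p 0.00227 by edgeR, or log2 -6.50 without library 1 of 48 h and -4.71 without library 3 of 0 h). Igfbp7, a secreted growth factor binding protein among the 10 highest genes per kb at 0 h, fell from 3935, 3822 and 7717 to 1613, 1445 and 542 CPM (log2FC -2.10 ± 0.45 SE, adjusted p 0.00442 by edgeR).

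Transport genes that serve the lens were lower in 5 of 17 and higher in 0. Aqp1, the epithelial water channel, fell from 1234, 1152 and 1638 to 692, 612 and 497 CPM (log2FC -1.16 ± 0.21 SE, adjusted p 0.00167 by edgeR). Atp1b1, a subunit of the sodium pump, fell from 322, 308 and 242 to 114, 88.1 and 41.9 CPM (log2FC -1.84 ± 0.29 SE, adjusted p 0.000772 by edgeR). Kcne4, an accessory subunit of potassium channels, had one of the steepest falls with little spread, from 104, 60.1 and 97.1 to 3.80, 4.81 and 3.07 CPM (log2FC -4.48 ± 0.42 SE, adjusted p 2.69e-05 by edgeR). Draxin, a guidance molecule of axons, fell from 15.9, 30.9 and 39.01 to 0.951, 0.109 and 0 CPM (log2FC -6.28 ± 0.80 SE, adjusted p 0.000283 by edgeR, with 1 count left at 48 h without library 1). Tacr3, the neurokinin B receptor, fell from 12.5, 13.2 and 7.31 to 0.423, 0 and 0 CPM (log2FC -6.15 ± 0.85 SE, adjusted p 0.000325 by edgeR, with no count left at 48 h without library 1).

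Of 20 nuclear genes of the respiratory chain 0 were higher and 1 lower (0 without library 2 or library 3 of 48 h), and the median log2 fold change was -0.02. Their median SD at 48 h, 0.102, was well under the 0.298 of all genes. At 0 h it was 0.451, above the 0.325 of all genes. In the glycolysis and hypoxia list 7 of 21 were lower and 1 higher (0 higher without library 1 or library 3 of 48 h). Targets of hypoxia-inducible factor were among the lower. Pdk1, which keeps pyruvate from the mitochondria, fell from 84.3, 76.98 and 65.4 to 28.3, 19.9 and 15.8 CPM (log2FC -1.83 ± 0.27 SE, adjusted p 0.000527 by edgeR). Bnip3, of mitophagy, fell from 76.7, 89.7 and 94.1 to 42.9, 27.3 and 21.4 CPM (log2FC -1.51 ± 0.23 SE, adjusted p 0.000557 by edgeR). The glucose transporter Slc2a1 fell from 1400.4, 1237 and 1670.1 to 767, 636 and 507 CPM (log2FC -1.17 ± 0.22 SE, adjusted p 0.00211 by edgeR). Gapdh, at 1103, 866 and 1677 CPM at 0 h and 907, 861 and 909 CPM at 48 h, did not pass (log2FC -0.45 ± 0.24 SE, adjusted p 0.187 by edgeR). Of 21 cholesterol and fatty acid genes 3 were lower and 1 higher (0 higher without library 2 or library 3 of 48 h, 3 without library 1). With total counts as scaling 4 were higher and 3 lower. Srebf1, a master regulator of lipid synthesis, fell from 454, 383 and 422 to 211, 183 and 122 CPM (log2FC -1.29 ± 0.20 SE, adjusted p 0.000655 by edgeR).

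Of 19 antioxidant genes 3 were higher and 4 lower, beside 14.9% higher and 9.90% lower of all tested genes. The count of higher genes lay near that share, so the genes that rose are single examples. Srxn1, Gsr and Txnrd1, which restore oxidised peroxiredoxin, glutathione and thioredoxin, rose. Srxn1 went from 24.8, 28.4 and 24.4 to 99.3, 135 and 199 CPM (log2FC 2.48 ± 0.23 SE, adjusted p 1.49e-05 by edgeR) and Txnrd1 from 64.4, 57.9 and 56.2 to 108, 181 and 261 CPM (log2FC 1.62 ± 0.28 SE, adjusted p 0.00131 by edgeR). Gclc, which makes glutathione, fell from 122, 174 and 166 to 81.6, 67.4 and 45.04 CPM (log2FC -1.25 ± 0.25 SE, adjusted p 0.00273 by edgeR). Aldh1a1, an aldehyde dehydrogenase of the lens epithelium, fell from 1936, 1829 and 2056 to 816, 842 and 365 CPM (log2FC -1.52 ± 0.32 SE, adjusted p 0.00417 by edgeR). The list of ER stress and ATF4 targets was split as well, with 8 higher and 5 lower of 20 (5 higher and 4 lower without library 3 of 48 h). Asns, the asparagine synthetase, rose from 2.91, 5.08 and 8.61 to 22.1, 23.5 and 31.9 CPM (log2FC 2.24 ± 0.34 SE, adjusted p 0.000603 by edgeR), while Phgdh, the first enzyme of serine synthesis, fell from 694, 531 and 834 to 229, 345 and 204 CPM (log2FC -1.40 ± 0.30 SE, adjusted p 0.00482 by edgeR).

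Clock genes were lower in 7 of 16 and higher in 1. Hlf, Tef and Dbp, output factors of the clock, fell. Hlf went from 294, 346 and 214 to 97.2, 86.2 and 58.6 CPM (log2FC -1.82 ± 0.25 SE, adjusted p 0.000356 by edgeR), Tef from 451, 302 and 238 to 133.8, 127 and 104 CPM (log2FC -1.44 ± 0.22 SE, adjusted p 0.000546 by edgeR) and Dbp from 40.8, 34.6 and 36.3 to 19.2, 10.7 and 13.3 CPM (log2FC -1.37 ± 0.24 SE, adjusted p 0.00124 by edgeR). Clock itself, at 152, 184 and 109 CPM at 0 h and 168, 146 and 119 CPM at 48 h, did not pass (log2FC -0.04 ± 0.19 SE, adjusted p 0.909 by edgeR). The hour of day at which capsules were taken is not stated in the labels. Among p53 targets and apoptosis genes 7 of 18 were higher and 4 lower, with Eda2r, a p53 target of the TNF receptor family, at 0.224, 1.15 and 1.43 CPM at 0 h and 13.1, 18.1 and 27.7 CPM at 48 h (log2FC 4.41 ± 0.50 SE, adjusted p 7.52e-05 by edgeR). Sesn1, another p53 target, fell from 134.3, 126 and 100.8 to 51.8, 38.2 and 29.7 CPM (log2FC -1.59 ± 0.21 SE, adjusted p 0.000256 by edgeR).

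Markers of other cells changed as well. Of 11 neutrophil genes in the data 8 passed the count filter, and 7 of these were higher. Genes nearly without counts at 0 h can pass that filter through the 48 h libraries, so this share is partly set by it. Of 15 macrophage and monocyte genes 8 were higher and 2 lower, and of 6 general leukocyte genes 5 were higher. Over all tested genes 14.9% were higher and 9.90% lower. Gpnmb, a membrane protein of macrophages and pigment cells from the lysosome list, rose from 44.9, 38.5 and 21.5 to 625, 311 and 212 CPM (log2FC 3.45 ± 0.52 SE, adjusted p 0.000885 by edgeR), highest in library 1. Lyz2, the lysozyme of myeloid cells, rose from 10.1, 15.004 and 15.9 to 61.4, 94.8 and 138 CPM (log2FC 2.85 ± 0.38 SE, adjusted p 0.000375 by edgeR). Vascular endothelium genes were higher in 6 of 10 and lower in 1, or in 3 without library 3 of 48 h and in 0 without libraries 3 of both times, and their sum was 25.0, 35.7 and 32.6 CPM at 0 h and 54.9, 28.8 and 68.6 CPM at 48 h, with overlap between the times. Pigment cell genes summed to 186, 175 and 154 CPM at 0 h and to between 18.9 and 70.7 CPM at 48 h, lowest in library 3, with 3 of 9 lower and 0 higher (2 lower without library 2 or library 3 of 48 h, 5 without library 1). Their part in the changes of other genes was not tested.

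Some called genes differed far more between the 48 h libraries than others. Among called genes with at least 10 CPM at 48 h, Prss56 had the widest range, 4.21 on the log2 scale, with 36.5, 2.73 and 54.3 CPM after 0, 2 and 1 counts at 0 h. Edn2, a vasoactive peptide, was at 18.9, 1.97 and 20.5 CPM and Impg2, of the matrix around photoreceptors, at 145, 14.1 and 92.3 CPM, a call lost without library 1 or library 3 of either time and without 4 of the WT libraries. In these 3 genes library 2 was the low one, and it also held the least of the photoreceptor list, 383 CPM against 3213 and 1990.0 CPM. The part of retinal RNA in these values was not tested. Igfbp3, a growth factor binding protein, had another order, at 39.1, 293 and 414 CPM after 2.35, 1.73 and 2.44 CPM (log2FC 6.83 ± 0.79 SE, adjusted p 0.000274 by edgeR), with library 1 low. So had Runx2, a transcription factor of bone, at 2.96, 18.02 and 30.6 CPM after 4.36, 0.808 and 1.58 CPM (log2FC 2.91 ± 0.84 SE, adjusted p 0.0262 by edgeR, log2 2.20 and missed without library 3 of 48 h, and missed without library 2 or 3 of 0 h). Paqr7, a membrane progestin receptor, was highest in library 1, at 696, 196 and 67.4 CPM after 71.6, 64.4 and 73.1 CPM (log2FC 2.20 ± 0.70 SE, adjusted p 0.0432 by edgeR), and its call was lost without that library (log2 0.92), without any 0 h library and without 3 of the WT libraries. The narrowest ranges were those of Rbbp6, at 105, 105 and 104 CPM after 154, 168 and 135 CPM (log2FC -0.54 ± 0.15 SE, adjusted p 0.0164 by edgeR, missed without library 2 or 3 of 48 h or library 2 of 0 h), and Icam1, described above, with ranges of 0.003 and 0.026.

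In the WT libraries, fitted in the same model, 2775 genes (19.1%) were higher and 1970 (13.5%) lower at 48 h, and 2840 genes were called in the same direction in both genotypes and 1 in opposite directions. Those shared calls made up 78.6% of the FNcKO calls and 59.9% of the WT calls. Across the 14560 genes, which are not independent of each other, the log2 fold changes of both genotypes had a Pearson correlation of 0.859. The difference of the 48 h responses was called in 0 genes (0.00%, edgeR, smallest BH-adjusted p = 0.186), with 735 genes at an unadjusted p under 0.05, 28 calls by DESeq2 and 0 by limma-voom. In simulated data, with 100 of 14560 genes differing at each size, the test found 49% of genes whose response differed 4-fold. It found 1% of those that differed 2-fold. The number of genes that truly differ is not known, so these shares do not give the power of the real comparison. The absence of calls therefore does not show equal responses. Col1a1 rose by log2 3.03 in FNcKO and 6.38 in WT (difference, edgeR, BH-adjusted p = 0.328), and C3 by 5.36 and 3.42 (BH-adjusted p = 0.6). Neither difference passed.

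**Figure D4:**
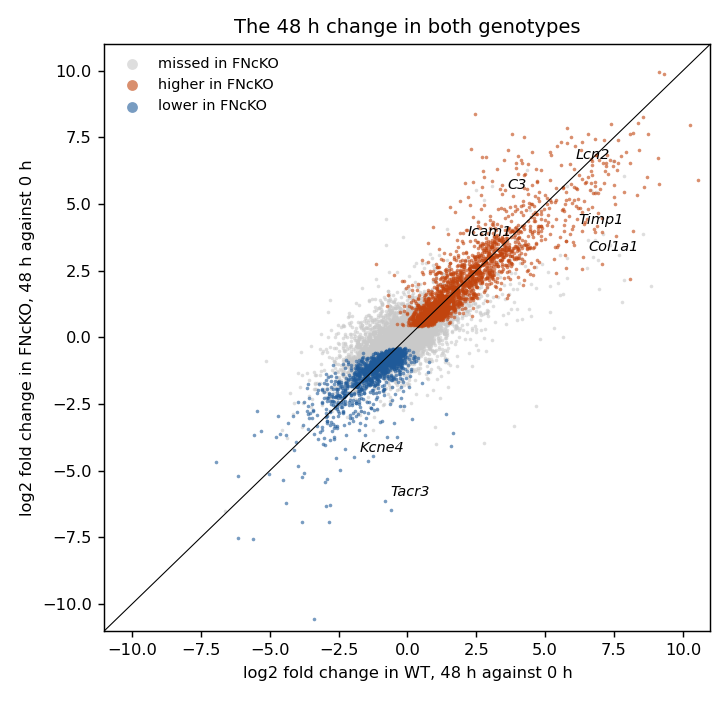
Each point is a tested gene, with the log2 fold change at 48 h against 0 h in WT on the horizontal axis and in FNcKO on the vertical axis, coloured by its call in FNcKO, and the line marks equal changes. Of the genes called in FNcKO 98.9% had a log2 fold change of the same sign in WT, a share that was not computed over all tested genes. Col1a1 and Timp1 lie below the line and C3 and Icam1 above it, and 0 genes passed the test of the difference.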

How the data were processed

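RNA of lens capsules with attached epithelial cells was sequenced in 12 libraries, 3 for each of 2 genotypes and 2 times. Per the file headers, the deposited files give whole-number counts per gene and RPKM per gene, 1 file for each library. The submitters' processing notes name TopHat2 2.1.0, HTSeq 0.6.1p1, Trim Galore 0.4.4, edgeR 3.16.5, bedtools 2.17, SAMtools 1.4, FastQC and the mm10 build, with no roles or options. The kit was stranded per the labels' protocols, but the strand setting of the counting was not given in these sources, so that overlapping and antisense genes are uncertain, and whether reads shared by close paralogs were counted is not given either. The deposited RPKM was used only to check that it follows from the deposited counts and the coding length (largest relative difference 1.4e-14). A combined deposited table of counts and RPKM was used for checks only.

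Counts were tested with edgeR 4.0.16 (R 4.3.3) by the quasi-likelihood test with robust estimation, after filterByExpr by group and scaling by the trimmed mean of M values, with 4 group means over all 12 libraries, which share 1 estimate of the spread. Benjamini-Hochberg adjustment ran over all 14560 tested genes, and adjusted p under 0.05 is a call. Standard errors were computed as the log2 fold change divided by the square root of F and are approximate. Log2 CPM for the spread used a prior count of 2. Folds of genes without a count at 0 h were set against a limit of 3 counts per library, a mean of 0.371 CPM, which covers counting error only. Symbols listed more than once took up to 0.163% of the counts of any library. Shares and sums were compared by exact permutation tests.

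The members of 49 lists (36 of responses and 13 of cell markers, 797 of 800 genes found) and all comparisons were chosen with earlier results of these data known. Genes were named by rule: the 12 largest non-overlapping called changes in each direction, up to 4 called members of each list in each direction by p and up to 2 abundant ones that missed, Fn1, the 10 widest and 10 narrowest called genes among the 48 h libraries with at least 10 CPM, the 10 highest per kb at each time, and 10 called genes without a count at 0 h. Exceptions are Foxe3, Pax6, Rsad2 and Ifit1. In data simulated for this comparison, with 100 of 14560 genes changed at each size, the test found 31% of 2-fold and 73% of 4-fold changes, with 8 false among 112 calls. Far fewer genes changed there than were called in the data, which makes the adjusted threshold stricter. These shares therefore do not give the power of the real comparison. Alternatives were other scalings (edgeR RLE, upper quartile, total counts), DESeq2 1.42.0, limma-voom (limma 3.58.1), other count filters, no robust estimation, only the FNcKO libraries, a replicate block, and each library left out. Promoter windows and their coordinates came from RefSeq tables for GRCm38.p6, and both strands were searched. Results for some genes are not reported here.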

Additional observations from a re-analysis of the deposited data

How the results depend on the processing

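With total counts alone as scaling, 3408 genes were called higher and 727 lower in FNcKO, against 2169 and 1442. With only the FNcKO libraries in the fit, 1666 were higher and 950 lower. Leaving out 1 library at a time gave 1469 to 2365 higher genes, 763 to 1730 lower genes and 0 to 1 genes for the difference between the genotypes. The lowest counts of both directions came without library 3 of FNcKO 48 h, and without library 2 of FNcKO 48 h 1778 were higher and 949 lower. Of 3 alternatives chosen after seeing the data, 2 lowered both counts: without libraries 3 of both FNcKO times 1322 were higher and 770 lower, and with the crystallin share as a covariate 993 and 345. The other, without crystallins and the 45S pre-rRNA entry Rn45s, gave 2212 and 1433. For the difference between the genotypes DESeq2 called 28 genes and the covariate model 2. The causes were not tested, though a fit with fewer libraries has less data. No gene called in the full fit was called in the opposite direction in any alternative. The labels do not say whether replicate numbers pair the FNcKO times. Deviations from the mean of each time correlated at -0.114, -0.284 and 0.004 for same-numbered libraries and at -0.092 to 0.206 for the others. Such correlations cannot decide whether libraries share an animal or a day. A replicate block gave 1886 higher and 1169 lower genes and 0 for the difference. Of 258 named genes with a call, 155 kept it in all alternatives and 103 lost it in at least 1, among them 87 under the covariate, 66 without both libraries 3 and 33 without library 3 of FNcKO 48 h.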

Other observations

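Several genes outside the lists had some of the steepest changes in FNcKO. Kynu, an enzyme that breaks down kynurenine, fell from 34.8, 23.5 and 29.1 to 2.22, 2.73 and 0.74 CPM (log2FC -3.94 ± 0.42 SE, adjusted p 5.8e-05 by edgeR). Its libraries did not overlap between the times, and its call held when any single library was left out. Gdnf, a growth factor for neurons, had 0.112, 0.115 and 0 CPM at 0 h, from at most 3 counts in all, and 2.85, 11.5 and 17.3 CPM at 48 h (adjusted p 0.000217 by edgeR).

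In FNcKO, 49 genes called higher had no count in any 0 h library, and 4 called lower had none in any 48 h library. Such genes passed the count filter only through other libraries and could be called in that direction only. These numbers therefore do not compare the directions. Saa3, an acute phase protein, reached 1.27, 1.20 and 9.83 CPM at 48 h, at least 11.1-fold higher (adjusted p 0.00707 by edgeR), or at least 3.33-fold without library 3. Slpi, an inhibitor of neutrophil elastase, reached 3.38, 2.40 and 2.43 CPM, at least 7.39-fold higher (adjusted p 0.0026 by edgeR), and the chemokine Ccl22 reached 0.951, 3.71 and 5.604 CPM, at least 9.23-fold higher (adjusted p 0.00891 by edgeR). Heat shock genes were higher in 3 of 13 and lower in 0, beside 14.9% higher and 9.90% lower of all tested genes. Without libraries 3 of both FNcKO times 1 was called higher, and with the crystallin share as a covariate 0 were. Hspd1, the mitochondrial chaperonin, went from 100.1, 129 and 140.0 to 177, 259 and 348 CPM (log2FC 1.09 ± 0.23 SE, adjusted p 0.00478 by edgeR). The abundant Hspa8, at 1710.3, 1843 and 2321 CPM at 0 h and 1906, 1911 and 1705 CPM at 48 h, did not pass (log2FC -0.09 ± 0.22 SE, adjusted p 0.81 by edgeR).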
